A study of Capra hircus with 9 samples.

Results

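The red blood cell miRNAs miR-144 and miR-451, which form a cluster, were followed through 3 of the 1359 mature miRNAs of the deposited count table, chi-miR-451-5p, chi-miR-144-5p and chi-miR-144-3p, which were chosen by name. They were measured in mammary gland tissue of 9 healthy Laoshan dairy goats of the third parity, with an average age of 4 years, that were raised on the same farm and slaughtered for sampling. Samples came from late lactation (LL) at 240 days postpartum, from the dry period (DP) at 300 days postpartum and from late gestation (LG) at 140 days after mating. Each stage had 3 goats, and each goat 1 small RNA library. The libraries hold total RNA of whole tissue, so any blood left in the vessels was sequenced with the gland, and fewer cells of a type and less RNA per cell cannot be told apart. Whether blood was washed out of the tissue is not given in the sources used here.

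miR-451 and miR-144 are made from 1 primary transcript, which the transcription factor GATA1 switches on during red blood cell formation. miR-451 is among the most abundant miRNAs of red blood cells, which in mammals have no nucleus but keep their small RNAs, and it is therefore widely used as a sign of red cell content in plasma and tissue samples. The miR-451 hairpin is too short for Dicer and is cut by Argonaute 2, so that one strand is made and hardly any partner strand. The miR-144 hairpin is processed by Dicer into a 5p and a 3p strand. miR-451 is known to restrain YWHAZ and miR-144 to restrain NFE2L2 (NRF2), by which both affect how red cells withstand oxidative stress.

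In the goat genome (ARS1.2), MIR451 lies on chromosome 19 from 20067872 to 20067942 and MIR144 on the same chromosome from 20068021 to 20068116. The hairpin genes are 78 bases apart and together span 245 bases, and no other annotated gene overlaps them. The nearest genes are the protein-coding ERAL1, which ends 141 bases before MIR451, and FLOT2, which starts 13313 bases after MIR144. The nearest other annotated miRNA gene of chromosome 19 is 990256 bases away.

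The counts of a library summed to between 13672653 and 34378995. Levels are given as CPM (counts scaled to a fixed library total) after TMM scaling, which corrects for a few very abundant miRNAs such as chi-miR-148a-3p, which alone held 8.81% to 59.4% of the counts of a library. The scaling factors ran from 0.745 to 1.28. Of the 1359 miRNAs, 696 reached 0.5 CPM in 3 or more libraries and were tested, among them all 3 members. The quasi-likelihood test of edgeR was used, and DE-miRNAs passed at an adjusted p-value of 0.05 with a log2 fold change beyond 1 or −1.

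chi-miR-451-5p, the mature strand of miR-451, made up nearly all of the signal of the cluster. It took between 97.6% and 99.6% of the counts of the 3 members in a library. The members together took 0.00998% to 0.119% of all counts of a library. Among the 696 tested miRNAs of a library, chi-miR-451-5p ranked between 73 and 89 by level in LL and between 112 and 143 in LG. In DP it ranked 53rd in replicate 2 and 77th in replicate 3, while in replicate 1 it ranked lower than in every LG library. Over all libraries, chi-miR-144-5p ranked between 331 and 588 and chi-miR-144-3p between 428 and 669.

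The level of chi-miR-451-5p was 543, 523 and 359.7 CPM in replicates 1, 2 and 3 of LL. In DP it had 121, 1279 and 569 CPM, and in LG 85.0, 153 and 164 CPM. All LL libraries lay above all LG libraries, while DP held the highest library of the study and also 1 (DP replicate 1) that lay inside the range of LG. The highest and the lowest DP library differed 10.6-fold, more than in 96.0% of the tested miRNAs with a value, where the median was 2.14-fold. In LL and LG the libraries differed 1.51-fold and 1.93-fold. Counting error is small against these gaps, with 1926 counts in DP replicate 1 and 27831 in DP replicate 2.

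chi-miR-144-5p, the 5p strand of miR-144, measured 5.73, 4.23 and 3.02 CPM in replicates 1, 2 and 3 of LL. The 3 DP libraries had 0.942, 4.32 and 5.19 CPM, and those of LG 1.30, 0.671 and 2.17 CPM. DP replicate 1 was again the low library of its stage and lay inside the range of LG, while DP replicates 2 and 3 lay inside that of LL. The counts were 15 in DP replicate 1 and 17 in LG replicate 2, so the exact 95% Poisson intervals of these levels, 0.527 to 1.55 CPM and 0.391 to 1.07 CPM, overlapped.

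chi-miR-144-3p, the 3p strand and the one through which miR-144 is best known to act, was at 1.73, 1.45 and 1.78 CPM in LL. In LG it was at 0.755, 0.750 and 1.13 CPM, and in DP the levels were 0.188, 0.230 and 2.31 CPM. DP replicate 3 was thus the highest of all 9 libraries and the other two of DP the lowest. They rest on 3 counts in DP replicate 1, 5 in DP replicate 2 and 53 in DP replicate 3. The exact 95% Poisson intervals of DP replicate 1 (0.0388 to 0.550 CPM) and replicate 2 (0.0746 to 0.536 CPM) lay below that of DP replicate 3 (1.73 to 3.02 CPM). These intervals cover counting error only, since each rests on the count of 1 library. No molecular identifiers are described for the reads, so repeated copies of a molecule are not told apart.

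**Figure D1:**
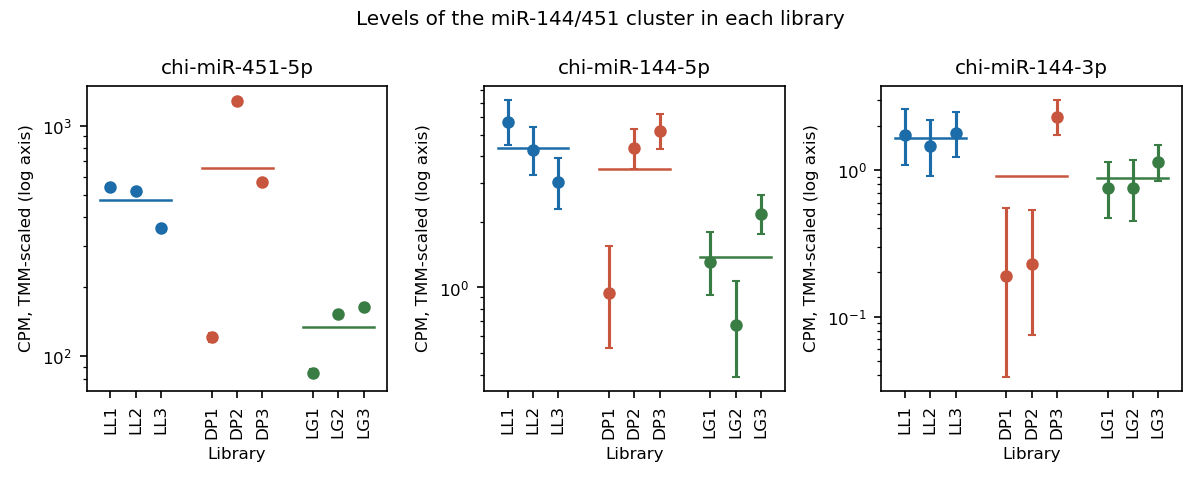
Level of each member in the 9 libraries in CPM scaled by TMM (log axis), coloured by stage, with exact 95% Poisson intervals of the count as bars and the mean of 3 goats as a line. DP replicate 1 is low in all 3 panels, and DP replicate 2 is the highest library for chi-miR-451-5p but among the lowest 2 for chi-miR-144-3p.

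In DP vs. LG, 1 of the 3 members was differentially expressed, where 31.5% of the 696 tested miRNAs were. chi-miR-451-5p had 656 ± 584 CPM in DP and 134 ± 42.8 CPM in LG (SD, n = 3), a log2 fold change of 2.29 (SE 0.64, edgeR adjusted p = 0.0176). It was higher in 2 of 3 DP libraries than in any LG library. The call was lost without DP replicate 2, where the log2 fold change was 1.35 (edgeR adjusted p = 0.133), without LG replicate 1, 2 or 3 at 1.94, 2.28 and 2.32, and with limma-voom at 1.81. Over the 19 alternatives the fold change was positive in 19 and the adjusted p ranged from 0.00101 to 0.133 (edgeR, DESeq2 and limma-voom).

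For chi-miR-144-5p the level was 3.48 ± 2.24 CPM in DP and 1.38 ± 0.755 CPM in LG (SD, n = 3). The log2 fold change of 1.32 (SE 0.60, edgeR adjusted p = 0.115) did not pass the test. It passed without DP replicate 1, at 1.58 (edgeR adjusted p = 0.0240). chi-miR-144-3p had 0.910 ± 1.21 CPM in DP and 0.879 ± 0.220 CPM in LG (SD, n = 3), with a log2 fold change of 0.07 (SE 0.75, edgeR adjusted p = 0.944). Its sign was negative in 11 of 18 alternatives and positive in 7, and the value left without DP replicate 3 was −2.25 (edgeR adjusted p = 0.00641). The libraries of DP and LG overlapped for all 3 members, whereas they did not overlap for 44.7% of the tested miRNAs.

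In DP vs. LL, 0 of the 3 members were differentially expressed, where 26.7% of the tested miRNAs were. The same count was found with DESeq2 and limma-voom. An unadjusted p under 0.05 was found for 0 members with edgeR and DESeq2 and for 1 with limma-voom, chi-miR-144-3p. The log2 fold changes were 0.47 for chi-miR-451-5p (SE 0.62, edgeR adjusted p = 0.586), −0.30 for chi-miR-144-5p (SE 0.59) and −0.82 for chi-miR-144-3p (SE 0.76). Without DP replicate 3, chi-miR-144-3p was differentially expressed at −2.98 (edgeR adjusted p = 0.00210), and without DP replicate 2 the fold change of chi-miR-451-5p turned to −0.31. The libraries of both stages overlapped for all 3 members, and 41.2% of the tested miRNAs had no overlap.

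In LL vs. LG the libraries did not overlap for any of the 3 members, as for 48.4% of the tested miRNAs, but 0 of the 3 passed the test, where 12.8% of the tested miRNAs did. chi-miR-451-5p had 475 ± 101 CPM in LL (SD, n = 3) and a log2 fold change of 1.83 (SE 0.63, edgeR adjusted p = 0.0757). chi-miR-144-5p, at 4.33 ± 1.36 CPM in LL, differed by 1.62 on the log2 scale (SE 0.61, edgeR adjusted p = 0.0950). chi-miR-144-3p, at 1.65 ± 0.176 CPM in LL, differed by 0.90 (SE 0.75, edgeR adjusted p = 0.459). The unadjusted p was under 0.05 for chi-miR-451-5p (0.0153) and chi-miR-144-5p (0.0227) in the fit across all miRNAs. Over the 19 alternatives chi-miR-451-5p passed in 4 and chi-miR-144-5p in 2. When only LL and LG were fitted, chi-miR-451-5p (1.62, edgeR adjusted p = 0.00680) and chi-miR-144-5p (1.43, adjusted p = 0.0495) passed, and both did without DP replicate 1 (1.77 and 1.57). With DESeq2 (adjusted p = 0.0489), and with the replicate number as a block in edgeR, chi-miR-451-5p passed too. With libraries scaled by their size only, the libraries of chi-miR-451-5p still did not overlap, with 271 to 481 CPM in LL and 97.4 to 211 CPM in LG. Those of chi-miR-144-5p then overlapped, with 2.27 to 4.27 CPM in LL and 0.798 to 2.79 CPM in LG, as did those of chi-miR-144-3p, with 1.29 to 1.34 CPM in LL and 0.865 to 1.45 CPM in LG.

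**Figure D2:**
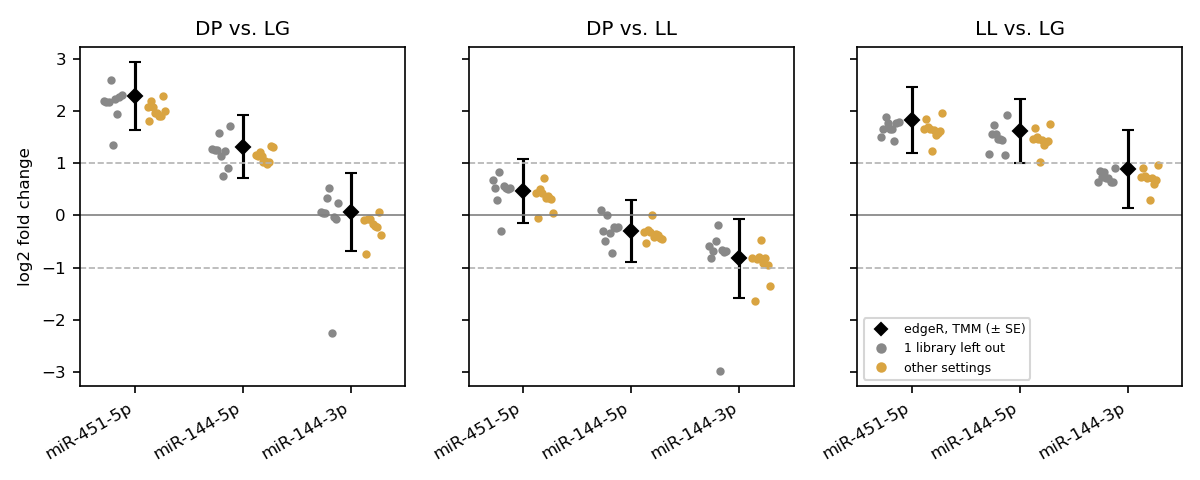
log2 fold change of each member in the 3 comparisons, with the reported value and its standard error (black), the values without 1 library (grey) and those with another tool, scaling, filter or set of libraries (yellow). Dashed lines mark a log2 fold change of 1 and −1. The grey points near −2.25 and −2.98 are chi-miR-144-3p without DP replicate 3.

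By stage mean, chi-miR-451-5p was highest in DP and lowest in LG, and both miR-144 strands were highest in LL. With libraries scaled by size only, the means of chi-miR-144-5p were alike in LL (3.48 CPM) and DP (3.47 CPM), and chi-miR-144-3p was lowest in DP. Of the neighbours in these orders, none passed the test in the fit of all 9 libraries. The sign of DP vs. LL turned for chi-miR-451-5p in 2 of 19 alternatives, among them the fit without DP replicate 2 (−0.31). For chi-miR-144-5p it turned in 3 of 19. In LL the libraries of chi-miR-144-3p differed 1.23-fold, less than the median of 1.58-fold over all tested miRNAs with a value, as did those of chi-miR-451-5p. In DP the libraries of chi-miR-144-3p differed 12.3-fold. Pooled over the 3 stages, the SD within a stage was 1.06 on the log2 scale for chi-miR-451-5p, 1.03 for chi-miR-144-3p and 0.91 for chi-miR-144-5p, which placed them 50th, 57th and 84th from the highest among the 696 tested miRNAs. The median of the tested miRNAs was 0.47.

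The 5p strand of miR-144 took 76.8%, 74.4% and 62.9% of the miR-144 counts in LL, 83.3%, 94.9% and 69.2% in DP and 63.3%, 47.2% and 65.8% in LG. It outnumbered the 3p strand in 8 of 9 libraries, and LG replicate 2 was the exception. The exact 95% Clopper-Pearson interval of DP replicate 2 (88.6% to 98.3%, 94 of 99 counts) lay above those of DP replicate 3 (61.7% to 76.0%, 119 of 172 counts) and of all LL and LG libraries, and overlapped that of DP replicate 1 (58.6% to 96.4%, 15 of 18 counts). These intervals too cover counting error only, not the spread between goats. Read counts of different strands also differ by how well each is ligated and by how reads of variant length are counted, and their part in the share was not tested. The log2 ratio of 5p to 3p was 1.34 ± 0.513 in LL, 2.57 ± 1.55 in DP and 0.52 ± 0.597 in LG (SD, n = 3). The stages did not differ beyond the spread (one-sided exact permutation test over 280 splits, p = 0.0821, adjusted for 3 ratios p = 0.123).

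chi-miR-451-5p had between 41.3 and 281 counts for each count of miR-144. The ratios were 72.9, 92.0 and 74.9 in LL, 107, 281 and 75.8 in DP and 41.3, 107 and 49.7 in LG. DP replicate 2 thus had the highest ratio, and the LL libraries lay closest to each other. On the log2 scale the ratio was 6.31 ± 0.184 in LL, 7.04 ± 0.980 in DP and 5.92 ± 0.731 in LG, and the exact permutation test found no difference between stages beyond the spread (p = 0.211, adjusted p = 0.211).

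The partner strand chi-miR-451-3p, which was chosen after its values were seen, had 0 to 3 counts in a library. chi-miR-451-5p took at least 99.9% of the counts of both strands in every library. In the 5 libraries with counts of chi-miR-451-3p, chi-miR-451-5p had between 1926 and 27831 counts. In the 4 libraries without any, 3 counts would correspond to 0.118 to 0.141 CPM by library size. Both strands of miR-144, by contrast, had counts in every library.

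**Figure D3:**
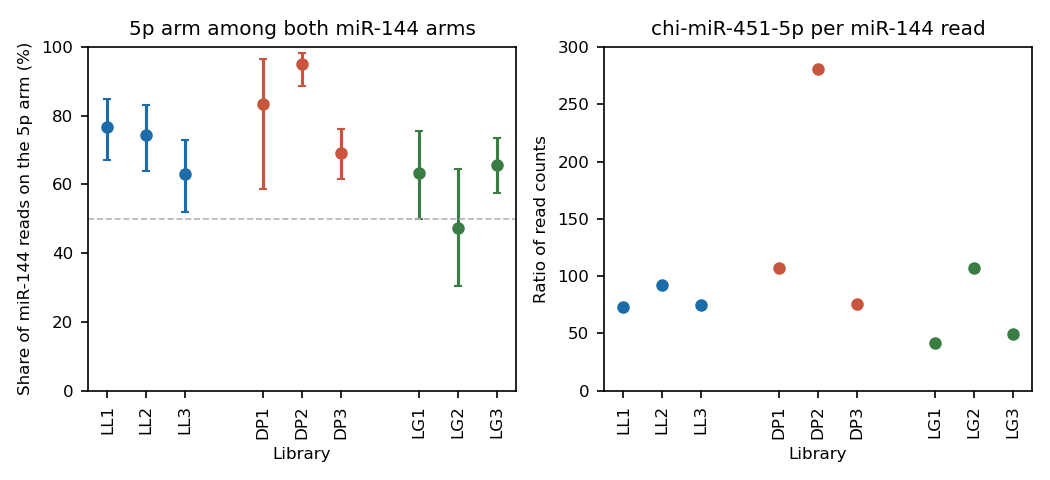
Left, share of the miR-144 counts that fell on the 5p strand in each library, with exact 95% intervals and a dashed line at 50%. Right, counts of chi-miR-451-5p for each count of miR-144 (both strands). DP replicate 2 is the highest library in both, with 94.9% and 281.

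Across the 9 libraries, chi-miR-451-5p and chi-miR-144-5p moved together in log2 CPM (Pearson r = 0.847, exact permutation p = 0.00551, adjusted for 3 pairs p = 0.0165; Spearman rho = 0.867, exact permutation p = 0.00451, adjusted p = 0.0135). Without the 2 libraries farthest from the median of chi-miR-451-5p (DP replicate 2 and LG replicate 1), r was 0.926, and over deviations from the stage means it was 0.748, given without a test. chi-miR-144-3p did not move with chi-miR-451-5p over all 9 libraries (r = 0.178, exact permutation p = 0.631, adjusted p = 0.631; rho = 0.417, exact permutation p = 0.270, adjusted p = 0.270), but r was 0.836 without the same 2 libraries. Between both miR-144 strands r was 0.499 (exact permutation p = 0.170, adjusted p = 0.255; rho = 0.617, exact permutation p = 0.0857, adjusted p = 0.129) and 0.242 without DP replicate 1 and LG replicate 2. Within a stage 3 libraries are too few for a correlation.

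Likeness to chi-miR-451-5p was also ranked over all tested miRNAs, by the root mean square difference of centred log2 CPM over the 9 libraries. chi-miR-144-5p came 6th of 695, with a difference of 0.65 on the log2 scale, and chi-miR-144-3p 437th with 1.46, where the median was 1.35. The closest were the predicted NC_030834.1_32127 (0.42) and NC_030834.1_32128 (0.44), whose names give the chromosome sequence of the prediction. NC_030834.1_32127 had 22.4, 30.4 and 24.8 CPM in LL, 12.3, 73.1 and 41.8 CPM in DP and 7.79, 12.8 and 17.6 CPM in LG. It was chosen for its likeness over these same libraries, so their order is a description. NC_030813.1_9442 (0.59), NC_030816.1_12976 (0.62) and chi-miR-215-5p (0.64) followed. chi-miR-215-5p, a relative of miR-192, had 54.4 CPM in DP replicate 2 and 5.63 to 18.7 CPM in the other 8 libraries.

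The name of the cluster was set against other miRNAs known to be abundant in red blood cells. Of 10 listed names, 7 were in the table, while those listed for miR-486, the other abundant red cell miRNA, were not. The 7 summed to 5336 to 6049 CPM in LL, 7711 to 13397 CPM in DP and 7765 to 8392 CPM in LG, and DP replicate 2 was the highest library, as for chi-miR-451-5p. DP replicate 1, which was low in chi-miR-451-5p, was second with 8855 CPM. Taken singly, chi-miR-16a-5p, chi-miR-16b-5p, chi-miR-15b-5p and chi-miR-25-3p were highest in DP replicate 2. chi-miR-15a-5p was highest in DP replicate 1 (33.1 CPM) and chi-miR-92a-3p in LG replicate 1 (3060 CPM). chi-miR-363-3p had its lowest level in DP replicate 2 (9.56 CPM). In DP vs. LL, 4 of the 7 rose and 1 fell, where 15.1% and 11.6% of the tested miRNAs did. chi-miR-15b-5p rose by 1.78 on the log2 scale (SE 0.34), chi-miR-16b-5p by 1.51 (SE 0.28), chi-miR-16a-5p by 1.28 (SE 0.25) and chi-miR-15a-5p by 1.103 (adjusted p = 0.00287 to 0.0113, edgeR). The miR-15/16 members restrain cell cycle genes in many cell types, and reads of such near-identical members could be split in the counting, so their separate values are uncertain. The call of chi-miR-15a-5p was lost in 5 of 19 alternatives, which left 3 that rose. These were the fits without DP replicate 1 (0.81) or LL replicate 2 (0.98), of LL and DP alone (1.00), with 10 counts in every library (0.97) and with TMM without chi-miR-148a-3p (0.99). With size as the only scaling 5 of the 7 rose.

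chi-miR-363-3p, from an X-linked relative of the miR-17-92 cluster, fell in both comparisons, with −1.74 (SE 0.28, edgeR adjusted p = 0.00121) in DP vs. LL and −1.54 (SE 0.27) relative to LG. In DP vs. LG, 1 of the 7 rose (2 without DP replicate 3) and 2 fell, where 21.6% and 9.91% of the tested miRNAs did. chi-miR-16a-5p was the one that rose (1.49), and chi-miR-92a-3p fell with chi-miR-363-3p, at −1.02 (SE 0.21, edgeR adjusted p = 0.00375). In LL vs. LG, 0 of the 7 passed, against 8.91% and 3.88%, although 4 fell in LL with size as the only scaling, 3 without a filter, 2 with 10 counts in every library or with only LL and LG fitted, and 1 without LG replicate 3. The median log2 fold change of the 7 was 0.85 for DP vs. LG (0.18 over all tested miRNAs) and 1.103 for DP vs. LL (0.12). It was −0.67 for LL vs. LG (0.17 over all). These miRNAs are also made in other cells of the gland. In LL vs. LG their log2 fold changes were positive for chi-miR-16a-5p (0.21) and chi-miR-363-3p (0.20). They were negative for chi-miR-15b-5p (−0.82), chi-miR-92a-3p (−0.77), chi-miR-25-3p (−0.74), chi-miR-16b-5p (−0.67) and chi-miR-15a-5p (−0.11).

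miRNAs of leukocytes, the other cells of blood, which also settle in the gland itself, moved in the same comparison as chi-miR-451-5p. miRNAs of fibroblasts and some of skeletal muscle rose in it as well, as given below. Of 8 leukocyte names listed, those of miR-142 were not in the table, and the other 6 were, with none at 0. They summed to 1268 to 1758 CPM in LL, 1786 to 3295 CPM in DP and 647 to 996 CPM in LG. The stages did not overlap with TMM, whereas LL and LG did with size as the only scaling. Of the 6, 5 rose and 0 fell in DP vs. LG, where 21.6% of the tested miRNAs rose and 9.91% fell. chi-miR-155-5p, which is induced in activated lymphocytes and macrophages, rose by 2.22 (SE 0.32, edgeR adjusted p = 0.000628) and chi-miR-150, of mature lymphocytes, by 2.26 (SE 0.51, edgeR adjusted p = 0.00674). In chi-miR-150, DP replicates 1 and 2 had 643 and 792 CPM and DP replicate 3 had 139 CPM. The low library of DP was thus another one than in chi-miR-451-5p, where DP replicate 1 was lowest.

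chi-miR-223-3p, of neutrophils and monocytes, had 112, 28.3 and 39.1 CPM in LL, 22.8, 45.9 and 17.3 CPM in DP and 10.8, 4.38 and 5.98 CPM in LG. Its log2 fold change in LL vs. LG was 3.08 (SE 0.61, edgeR adjusted p = 0.00823), and in LL vs. LG 3 of the 6 leukocyte miRNAs rose in LL and 0 fell, where 8.91% and 3.88% of the tested miRNAs did. That count was 0 without LG replicate 3, 1 without LL replicate 1 and 2 without any 1 of the other LL and LG libraries. The count of 5 in DP vs. LG was 2 without DP replicate 2, LG replicate 2 or LG replicate 3. It was 4 without any 1 of the other libraries, with the other scalings, with DESeq2 and with either other filter. In DP vs. LL 1 of the 6 rose (chi-miR-150) and 0 fell, against 15.1% and 11.6%, and 3 rose with size as the only scaling. The part of leukocytes, or of the amount of blood, in the values of the cluster was not tested.

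chi-miR-126-3p and chi-miR-126-5p, of endothelium and platelets, summed to 15852 to 22980 CPM in LL, 19028 to 31975 CPM in DP and 14715 to 16363 CPM in LG. DP replicate 2 was again the highest and DP replicate 1 the lowest of DP. Of the 2, 1 rose in DP vs. LG, where 21.6% of the tested miRNAs did. This was chi-miR-126-5p, by 1.08 (edgeR adjusted p = 0.00750), a call that was lost in 15 of 19 alternatives, among them every other scaling and leaving out any 1 library except DP replicate 1. The 5 miRNAs of epithelium (miR-200 family) summed to 34893 to 42110 CPM in LL, 13064 to 20811 CPM in DP and 34218 to 37558 CPM in LG. All 5 fell in DP vs. LL, where 11.6% of the tested miRNAs fell, but 3 of 5 without DP replicate 2 and 0 of 5 with size as the only scaling. Relative to LG, 3 fell in DP, against 9.91% of the tested miRNAs, and 5 with the other scalings. The CPM of chi-miR-451-5p in DP thus stand beside lower CPM of epithelial miRNAs.

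The 4 miRNAs of skeletal muscle summed to 672 to 879 CPM in LL, 907 to 3400 CPM in DP and 383 to 495 CPM in LG, with the highest value in DP replicate 3. The 2 of smooth muscle and myoepithelium had 70835 to 115284 CPM in LL, 30282 to 122725 CPM in DP and 52672 to 61217 CPM in LG, and the 2 of fibroblasts 1406 to 2986, 3412 to 7013 and 1363 to 1467 CPM. In these lists DP replicate 3, not replicate 2, was the highest library of DP. In DP vs. LG, 2 of the 4 of skeletal muscle, 0 of the 2 of smooth muscle and 2 of the 2 of fibroblasts rose. None fell, where 21.6% of the tested miRNAs rose and 9.91% fell. The count for skeletal muscle was 1 without DP replicate 3 and 4 without DP replicate 1.

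**Figure D4:**
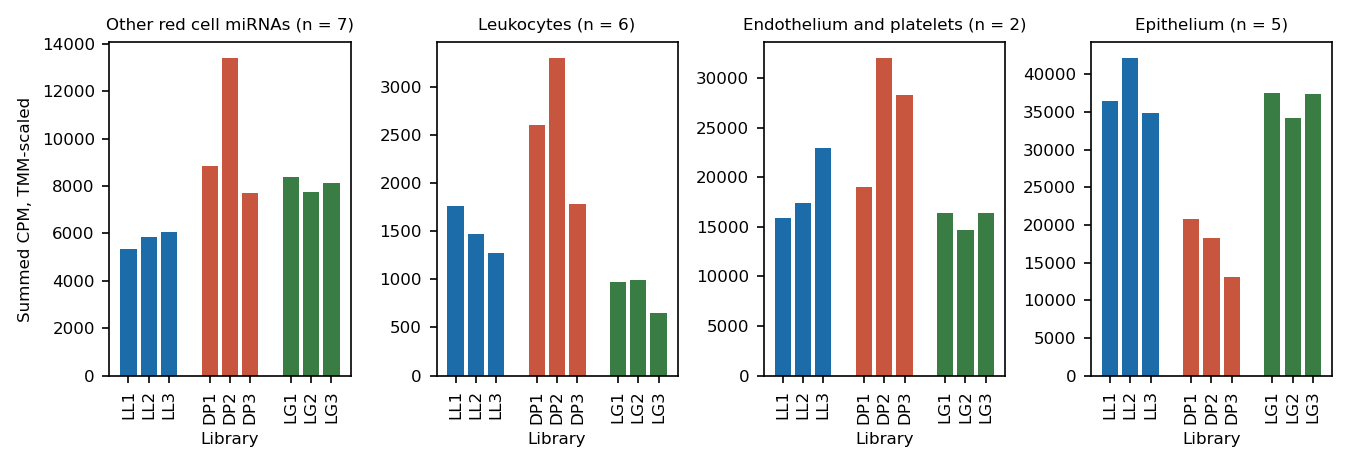
Summed level of 4 marker lists in each library in CPM scaled by TMM (bars, coloured by stage; n is the number of listed miRNAs in the table). DP replicate 2 is the highest library in the lists of red cells (13397 CPM), leukocytes (3295 CPM) and endothelium and platelets (31975 CPM), and the epithelial list is lowest in the DP libraries.

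A ratio of miR-451 to miR-23a is used in plasma to show red cells that burst, since miR-23a is hardly affected by them. chi-miR-451-5p had 0.481, 0.444 and 0.306 counts for each count of chi-miR-23a in LL, 0.0784, 0.264 and 0.143 in DP and 0.0939, 0.169 and 0.155 in LG. All LL libraries lay above all others, and DP replicate 1 was the lowest of all. The log2 ratio was −1.31 ± 0.348 in LL, −2.80 ± 0.875 in DP and −2.89 ± 0.458 in LG (one-sided exact permutation test over 280 splits, p = 0.0464, adjusted for 3 ratios p = 0.123), so that the difference did not pass after adjustment. In tissue chi-miR-23a is not constant. It had 1130 to 1177 CPM in LL, 1543 to 4853 CPM in DP and 901 to 1062 CPM in LG, so the order of DP and LL was the opposite of that by CPM.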

How the data were processed

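Small RNA libraries of mammary gland tissue of LL, DP and LG (3 goats each) were analysed. After trimming and miRDeep2 alignment to ARS1.2, the goat assembly, the authors deposited unnormalized read counts per mature miRNA, known from miRBase or predicted. The submitters' processing notes name FastQC 0.11.9, cutadapt 4.2 and Bowtie 1.1.1. LL replicate 3 was read as deposited expected counts, since 2 predicted miRNAs were not at whole numbers, and was rounded to whole numbers. The scripts used edgeR 4.0.16 in R 4.3.3 with TMM, 1 fit of 9 libraries with stage as the only term, and Benjamini-Hochberg adjustment over 696 miRNAs. SE is the absolute log2 fold change divided by the square root of F. Other scalings and filters, DESeq2 1.42.0, limma-voom (limma 3.58.1), fits of 2 stages, leaving out each library and a replicate block were alternatives. Exact permutation tests were run in Python 3.11.15 (scipy 1.17.1), and the fits were tested on simulated data. Groups were taken from the sample titles. P-values of the stage comparisons measure the spread between goats. Those of the correlations permute all 9 libraries, so differences between stages enter them. The limit that 0 counts allow (3 counts) lay between 0.0873 and 0.219 CPM. Named miRNAs are the members, those of marker lists, the 5 most like chi-miR-451-5p and, as references of scaling and ratio, chi-miR-148a-3p and chi-miR-23a. chi-miR-451-3p was chosen after its values were seen. A further rule, on shared seeds, was not used here. Members and lists were chosen with earlier results of these data known. Gene positions are those of RefSeq for ARS1.2.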

Additional observations from a re-analysis of the deposited data

How the results depend on the processing

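For the 3 members, 9 log2 fold changes were recomputed under up to 19 alternatives. With 1 library left out, chi-miR-451-5p ranged from 1.35 to 2.61 in DP vs. LG, −0.31 to 0.84 in DP vs. LL and 1.42 to 1.88 in LL vs. LG. For chi-miR-144-5p the ranges were 0.76 to 1.71, −0.71 to 0.10 and 1.15 to 1.92, and for chi-miR-144-3p −2.25 to 0.54, −2.98 to −0.19 and 0.63 to 0.92. In DP vs. LG, limma-voom gave 1.81 for chi-miR-451-5p, which then missed the threshold. The sign of chi-miR-144-3p in DP vs. LG turned with DESeq2 (−0.0828), limma-voom (−0.73), the upper quartile (−0.0650), DESeq2-type size factors (−0.0764), library size only (−0.17), TMM without chi-miR-148a-3p (−0.20) and no filter (−0.22). In DP vs. LL it turned for chi-miR-451-5p with limma-voom (−0.0455) and for chi-miR-144-5p with library size only (0.0143). In LL vs. LG, chi-miR-451-5p also passed with DESeq2 (1.66) and in the fit of 2 stages (1.62), where chi-miR-144-5p did too (1.43). The correlation of chi-miR-451-5p with chi-miR-144-3p was −0.00585 by library size only. The adjusted p of the exact permutation tests without 1 library ranged from 0.0321 to 0.263 for the 5p to 3p ratio, which passed in 1 of them, from 0.0964 to 0.464 for the ratio of chi-miR-451-5p to miR-144 and from 0.0643 to 0.214 for that to chi-miR-23a. The cause of these changes was not tested. A filter of 10 counts in every library removed chi-miR-144-3p and gave no value for it.

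With a replicate block, chi-miR-451-5p passed in LL vs. LG (1.97, adjusted p = 0.0495, edgeR) and chi-miR-144-3p turned to −0.38 in DP vs. LG. The block gave 222, 170 and 88 DE-miRNAs in DP vs. LG, DP vs. LL and LL vs. LG, beside 219, 186 and 89. Deviations of same-numbered libraries correlated at −0.101 to 0.214 (median 0.0776), over 0.1 in 3 of 9 pairs, and those of other pairs at −0.230 to 0.149 (median −0.0143), over 0.1 in 2 of 18. Since not every same-numbered pair was over 0.1, and not every library correlated best with its own number, the numbers were not taken as pairs. The number of DE-miRNAs ranged from 152 to 248, 124 to 224 and 33 to 141 over all alternatives. Scaling by library size only moved the median log2 fold change of all tested miRNAs from 0.18, 0.12 and 0.17 to −0.02, 0.49 and −0.42. Of 588 values for 31 results on other miRNAs, 486 kept their side of the threshold, 100 lost it, 2 gained it and 0 changed sign. Most of these 31 results had passed in the fit of all 9 libraries. Losing the threshold was therefore likelier than gaining it, and a change of sign was unlikely from the start.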
